A study of Homo sapiens with 15 samples.

Results

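The comparison described here is the addition of MCL to ruxolitinib in TNF-α stimulated UKE1 cells: 3 libraries of cells given both drugs against 3 libraries of cells given ruxolitinib, out of 15 libraries in the series. Its members are the genes that passed a filter on low counts, set at a minimum count of 10 by group, which kept 16146 of 58735 genes. UKE1 is an established human leukaemia line that arose from a myeloproliferative neoplasm and carries an activating mutation of the kinase JAK2. All groups were unmodified cells of this 1 line. The other 9 libraries were untreated cells, TNF-α stimulated cells, and stimulated cells given MCL, 3 of each. RNA was taken at 3 h after treatment, and both drug groups had been stimulated with TNF-α first, as had the MCL group. Drug doses, the duration of stimulation and the culture behind each library were not given in the sources used here. All p-values rest on the spread of 3 libraries a group, pooled over the 5 groups and in part over genes, and that spread may be technical.

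MCL is taken as micheliolide, the sesquiterpene lactone named in the title of the series. Lactones of this kind carry a methylene group that reacts with the thiol of cysteine residues in proteins. Cells answer reactive compounds through several systems. The sensor KEAP1 releases the transcription factor NRF2, which switches on antioxidant genes, unfolded proteins release HSF1, which switches on chaperone genes, and stress kinases raise the factor ATF4, which switches on amino acid transport and cell stress genes. TNF-α activates NF-kB and, with the cytokines that follow, interferon-stimulated genes. Ruxolitinib inhibits JAK1 and JAK2, the kinases upstream of STAT3 and STAT5. The series asks how micheliolide acts on STAT3 and STAT5, and this comparison asks what it adds when JAK is already inhibited.

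The label of the line was checked against marker genes. PTPRC, the pan-leukocyte antigen, lay between 295.8 and 353.9 CPM over the 15 libraries (CPM are counts scaled to a common library size with TMM factors), and CD34, a progenitor antigen, between 958.3 and 1295 CPM. MPO, an enzyme of myeloid granules, reached at most 1.33 CPM. The epithelial markers EPCAM, KRT19 and CDH1, the B-cell marker MS4A1 and the fibroblast marker LUM had no count in any library. Some other markers of these lists were present. The keratin genes KRT8 and KRT18 of the epithelial list lay at 39.63 to 56.22 and 58.24 to 104 CPM. CD79A, CD3D and CD3E of the T and B cell list lay at 19.29 to 27.33, 5.504 to 14.72 and 4.796 to 8.666 CPM. ITGA2B, a megakaryocyte marker, lay at 487.7 to 611.8 CPM. The summed level of 10 myeloid and progenitor markers lay between 3090 and 3099 CPM with ruxolitinib and between 1932 and 1991 CPM with both drugs. In bulk RNA fewer cells of a type and less RNA per cell cannot be told apart. Totals per library ran from 16366774 to 17144561 counts with ruxolitinib and from 16613939 to 17869509 with both drugs. Mitochondrial transcripts held 5.49% ± 0.0476 of the counts in the ruxolitinib libraries and 4.30% ± 0.143 in those with both drugs (mean ± SD, n = 3), and the part of this shift in the results below was not tested.

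Adding MCL to ruxolitinib changed the transcript levels of 8347 genes at 3 h. Of 16146 genes, 4012 rose (24.8%) and 4335 fell (26.8%), 51.7% in all, in edgeR's quasi-likelihood test at an adjusted p under 0.05. The counts of list members that rose or fell below are to be read beside these 24.8% and 26.8%. Members of the lists were chosen with earlier results of these data known, so these counts are descriptions. A change of at least 2-fold was called upward in 517 genes (3.2%) and downward in 1101 genes (6.82%). The median log2 fold change of all tested genes was -0.02. The biological coefficient of variation between replicate libraries was 0.0404, so that small changes passed. The 3 libraries of each group did not overlap in 27.3% of genes upward and in 29% downward.

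**Figure D1:**
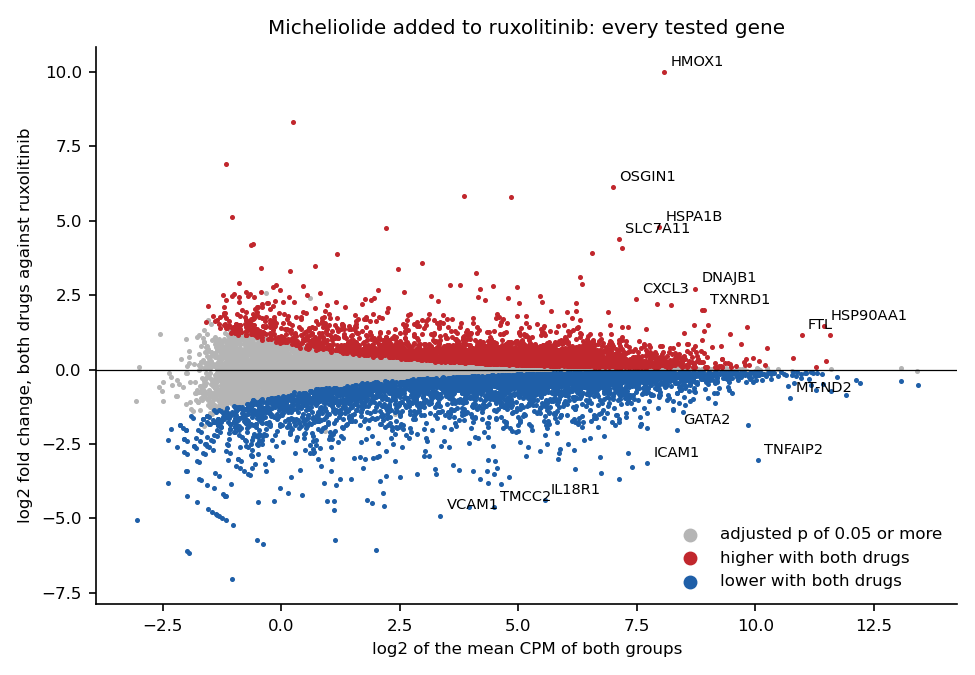
Each point is 1 of 16146 tested genes, with the log2 of its mean CPM over both groups on the horizontal axis and its log2 fold change, both drugs against ruxolitinib, on the vertical axis. Red points rose, blue points fell and grey points did not pass at an adjusted p of 0.05; HMOX1 stands at the top at 9.99 and TNFAIP2, at a high level, stands at -3.03.

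The 12 highest fold changes among protein-coding genes with a mean of 5 CPM or more and no overlap between libraries belonged to HMOX1 (9.99), OSGIN1 (6.14), HSPA1A (5.81), HSPA1B (4.79), SLC7A11 (4.39), DNAJB4 (4.08), GCLM (3.92), TRIM16L (3.58), SRXN1 (3.40), TNFSF18 (3.23), CHAC1 (3.11) and BAG3 (2.87), as log2 values. Of these, TNFSF18, which encodes the ligand of the co-stimulatory receptor GITR, is not on a stress list. It stood at 2.79, 3.74 and 3.45 CPM in ruxolitinib replicates 1, 2 and 3 and at 28.9, 32.5 and 32.6 CPM in the replicates with both drugs. The 12 lowest were RNF223 (-6.04), VCAM1 (-4.90), ANO9 (-4.62), TMCC2 (-4.61), CGN (-4.57), IER3 (-4.47), IL18R1 (-4.39), SPIB (-4.14), ACHE (-3.86), RASSF4 (-3.82), SLC8A3 (-3.74) and WNT10A (-3.69). The value of RNF223 rests on 6 counts in the 3 libraries with both drugs together, against 391 with ruxolitinib. Such counts were also low for IER3 (17), CGN (19), WNT10A (21), SPIB (25), SLC8A3 (31) and VCAM1 (35). The change of CGN ran from -6.19 to -4.05 over 12 alternative ways of processing, so sizes and order among these genes are uncertain. IL18R1, a receptor chain for interleukin 18, stood at 92.6, 84.1 and 93.2 CPM with ruxolitinib and at 4.87, 3.93 and 4.06 CPM with both drugs, and it overlaps IL1RL1, a gene of low level. TMCC2 and ACHE are known from erythroid cells, and SPIB encodes a lymphoid relative of the myeloid factor PU.1. All 12 lowest genes had a higher mean with TNF-α than in untreated cells. Means in untreated cells, with TNF-α and with both drugs were 3.29, 49.6 and 1.76 CPM for TMCC2. They were 2.63, 33.6 and 3.20 CPM for ACHE and 0.528, 4.60 and 0.466 CPM for SPIB.

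Promoters of genes that rose are shown because the stress systems act through short DNA elements, and those of the antioxidant and heat shock systems are printed. The stretches come from RefSeq on GRCh38.p14, read 5′ to 3′ on the gene's strand, within 250 bases before the annotated start and ending where sequence shared with a GENCODE 29 transcript of the gene began. Lower case marks the flanks and capitals mark the element. For the antioxidant response element, searched as TGACNNNGC on both strands, the 3 highest risers of the NRF2 list with a match in such a stretch were TXNRD1 at chr12:104215529-104215778 on the plus strand, ME1 at chr6:83431072-83431301 on the minus strand and PGD at chr1:10398814-10399043 on the plus strand:
TXNRD1: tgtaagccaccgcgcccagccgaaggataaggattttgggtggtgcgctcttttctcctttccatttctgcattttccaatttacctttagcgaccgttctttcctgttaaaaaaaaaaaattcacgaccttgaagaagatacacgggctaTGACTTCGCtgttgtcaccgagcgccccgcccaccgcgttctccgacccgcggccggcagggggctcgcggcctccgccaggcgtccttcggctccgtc
ME1: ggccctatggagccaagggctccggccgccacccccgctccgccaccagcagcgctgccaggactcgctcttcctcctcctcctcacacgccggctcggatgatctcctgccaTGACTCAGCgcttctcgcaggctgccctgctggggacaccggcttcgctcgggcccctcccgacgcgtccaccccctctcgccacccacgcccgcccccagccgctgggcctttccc
PGD: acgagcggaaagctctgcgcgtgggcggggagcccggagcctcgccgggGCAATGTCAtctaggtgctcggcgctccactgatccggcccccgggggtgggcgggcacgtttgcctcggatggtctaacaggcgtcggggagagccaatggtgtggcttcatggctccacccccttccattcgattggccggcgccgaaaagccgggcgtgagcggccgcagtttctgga
The matches begin 99, 137 and 201 bases before the start. In PGD the element lies on the opposite strand, and the one in ME1 also contains the letters TGACTCA of the AP-1 site. For the heat shock element, searched as GAANNTTC, which reads alike on both strands, the 2 highest risers of the heat shock list are the neighbouring genes HSPA1A at chr6:31815293-31815463 and HSPA1B at chr6:31827488-31827734, both on the plus strand:
HSPA1A: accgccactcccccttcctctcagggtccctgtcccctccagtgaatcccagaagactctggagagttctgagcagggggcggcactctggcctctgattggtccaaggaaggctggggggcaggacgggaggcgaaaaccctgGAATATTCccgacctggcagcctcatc
HSPA1B: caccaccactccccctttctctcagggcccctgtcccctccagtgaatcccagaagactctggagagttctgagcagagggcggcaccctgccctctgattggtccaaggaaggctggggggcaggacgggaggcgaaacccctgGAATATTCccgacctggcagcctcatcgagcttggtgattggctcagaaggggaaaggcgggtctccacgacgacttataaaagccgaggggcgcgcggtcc
Here the element begins 106 and 105 bases before the start, and the full windows of 250 bases are 93.6% identical. Over all 27305 promoter windows of this length 11.03% held the antioxidant element and 5.85% the heat shock element. The windows found for 25 tested NRF2 targets held the first in 5 cases, GCLM among them, and those for 24 heat shock genes held the second in 9 cases (37.5%). The promoter of GCLM is not printed because its match does not end before sequence shared with a transcript of the gene. For the same reason CHAC1 is not printed, the only one of 20 windows of the ATF4 list that held TTGCATCA (5.0% against 0.82% of all windows, both strands). A match of letters is a description of the window and shows neither a bound site nor a cause.

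NRF2 targets rose as a group. Of 33 tested members 24 rose, 2 fell and 7 did not pass, with a median log2 fold change of 0.97 against -0.02 for all genes. The member with the largest change was HMOX1 (ENSG00000100292, chr22:35380361-35394214 on hg38), haem oxygenase 1, which breaks down haem. Its levels were 0.789, 0.623 and 0.175 CPM with ruxolitinib and 529, 569 and 519.7 CPM with both drugs, a log2 change of 9.99 ± 0.112 (SE, adjusted p = 1.32e-31). With ruxolitinib HMOX1 had 3 to 13 counts per library, and with both drugs the lowest of the 3 libraries had 9130 counts. At such low counts the SE of HMOX1, derived from F, understates the uncertainty of the size. Over 12 alternative ways of processing the change ran from 9.56 to 10.4. GCLM, the modifier subunit of the enzyme that starts glutathione synthesis, stood at 11, 11.3 and 12.8 CPM with ruxolitinib and at 179, 185 and 168 CPM with both drugs, a log2 change of 3.92 ± 0.0674 (SE, adjusted p = 2.76e-49). SLC7A11, the cystine importer that feeds glutathione synthesis, went from 13.6, 12.3 and 12.2 to 263, 263 and 274 CPM, a log2 change of 4.39 ± 0.0556 (SE, adjusted p = 8.67e-58). In neither gene did any library of one group come near the other group.

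Other members of the NRF2 list covered thioredoxin, iron and quinone handling. TXNRD1, thioredoxin reductase 1, went from 191, 194 and 192 to 772, 762 and 785 CPM, and reads of this gene can mix with those of EID3 and of a ribosomal pseudogene inside it. MAFG, a partner of NRF2 on DNA, rose by 2.21 on the log2 scale, and SRXN1, which repairs oxidised peroxiredoxins, by 3.40. The ferritin chains FTL and FTH1 were abundant already and rose by 1.16 and 1.52. FTL reached 2788, 2815 and 2768 CPM with both drugs. NQO1, a quinone reductase, rose by 2.85 from a mean of 3.31 ± 0.773 to 24 ± 1.13 CPM. The 2 members that fell were the efflux pump ABCC1 at -0.14 and the aldo-keto reductase AKR1B1 at -0.24. FTL, FTH1, ABCC1 and AKR1B1 were chosen for naming after their values were seen.

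Heat shock genes rose as well: 22 of 26 tested members passed upward and 2 downward, with a median log2 fold change of 0.73. The stress-inducible HSP70 gene HSPA1B (chr6:31827735-31830255) stood at 18, 16.9 and 17.7 CPM with ruxolitinib and at 487, 504 and 470.2 CPM with both drugs, a log2 change of 4.79 ± 0.0491 (SE, adjusted p = 1.17e-62). HSPA1A, its near-identical neighbour, went from 0.789, 0.872 and 1.35 to 61.1, 68.7 and 40.9 CPM. Reads cannot be split surely between this pair, so their separate values are uncertain while both rose in every library. DNAJB1, the HSP40 co-chaperone, went from 111, 116 and 109.6 to 731, 752 and 743 CPM, a log2 change of 2.72 ± 0.0364 (SE, adjusted p = 1.18e-56), and it overlaps TECR, an enzyme gene on the other strand at 109 CPM. The chaperone regulator BAG3 rose by 2.87, the co-chaperone DNAJB4 by 4.08 and the HSP110 gene HSPH1 went from 189, 189.8 and 188 to 744, 756 and 765 CPM. Even the abundant chaperones moved: HSP90AA1 went from 1485, 1522 and 1511 to 4029, 4071 and 4263 CPM and HSPA8 from 1852, 1924 and 1847 to 4115, 4264 and 4347 CPM. HSPA6, an HSP70 gene that is silent in most resting cells, rose from 2.06, 1.62 and 1.75 to 7.88, 7.81 and 7.35 CPM. The 2 that fell were the small heat shock protein gene HSPB1 at -0.25 and the collagen chaperone gene SERPINH1 at -0.43. HSP90AA1, HSPA8, HSPB1 and SERPINH1 were chosen after their values were seen.

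Genes of the integrated stress response, which ATF4 drives, rose in nearly the whole list. Of 29 tested members 26 rose, 2 fell and 1 did not pass, with a median log2 fold change of 0.81. CHAC1, which degrades glutathione, stood at 15.7, 18.8 and 14.6 CPM with ruxolitinib and at 143, 148 and 134 CPM with both drugs, a log2 change of 3.11 ± 0.0652 (SE, adjusted p = 4.81e-46). SESN2, an inhibitor of the growth kinase mTORC1 under amino acid shortage, went from 26.9, 25.4 and 25.6 to 117, 133 and 121 CPM, a log2 change of 2.25 ± 0.0605 (SE, adjusted p = 3.65e-40). All 3 libraries with both drugs lay above all 3 with ruxolitinib for both genes. The stress transcription factor ATF3 rose by 2.80, the mTORC1 inhibitor DDIT4 by 2.48 and the amino acid transporter chain SLC3A2 by 1.23. DDIT3, which encodes the death-linked factor CHOP, rose by 2.35, but it overlaps MARS and MBD6, which are expressed at 211 and 77.4 CPM. The 2 that fell were ATF5 at -0.38 and GDF15, a stress cytokine gene, at -0.87 ± 0.286 (SE, adjusted p = 0.00882). GDF15 had only 3.22, 2.3 and 2.16 CPM with ruxolitinib, and its call was lost when ruxolitinib replicate 1 or replicate 1 with both drugs was left out, with adjusted p up to 0.078. DDIT4, ATF5 and GDF15 were chosen after their values were seen.

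Genes of protein quality control in other compartments rose with smaller changes. For the endoplasmic reticulum and its unfolded protein response, 15 of 24 genes rose and 9 did not pass, with a median of 0.29. HERPUD1, a component of the degradation machinery of that organelle, went from 36.8, 40.1 and 36 to 121, 123 and 115 CPM, and HSPA5, its main HSP70 chaperone, rose by 0.79. Of 33 proteasome subunit genes 21 rose and 1 fell, with a median of 0.15. The subunit gene PSMC6 rose by 0.50, and the one that fell, PSMA7, stood at -0.09, a call lost in 7 of 12 alternatives, among them those without ruxolitinib replicate 2 and without replicate 1 with both drugs (adjusted p up to 0.415). Of 17 autophagy receptor and ATG8 genes 13 rose and 1 fell, with a median of 0.55. SQSTM1, the cargo receptor p62, went from 497, 496 and 478 to 1319, 1372 and 1281 CPM, and its position overlaps MGAT4B, which stands at 220 CPM. GABARAPL1, an ATG8 protein gene, rose by 1.84, and the receptor gene OPTN fell by 0.62. GABARAPL1, OPTN and PSMA7 were chosen after their values were seen.

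Metallothioneins, which bind zinc and other metals, did not share this direction. Of 4 tested members of their list 3 fell and 1 rose, with a median of -0.45. MT2A stood at 179, 198 and 200.2 CPM with ruxolitinib and at 129, 139.8 and 136 CPM with both drugs. MT1X fell by 0.73, and the zinc exporter SLC30A1 rose by 0.34. The remaining member was MT1F at -0.39 ± 0.147 (SE, adjusted p = 0.0231), a call lost in 6 of 12 alternatives, among them those without ruxolitinib replicate 1 or 2 and without replicate 2 or 3 with both drugs (adjusted p up to 0.0911).

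**Figure D2:**
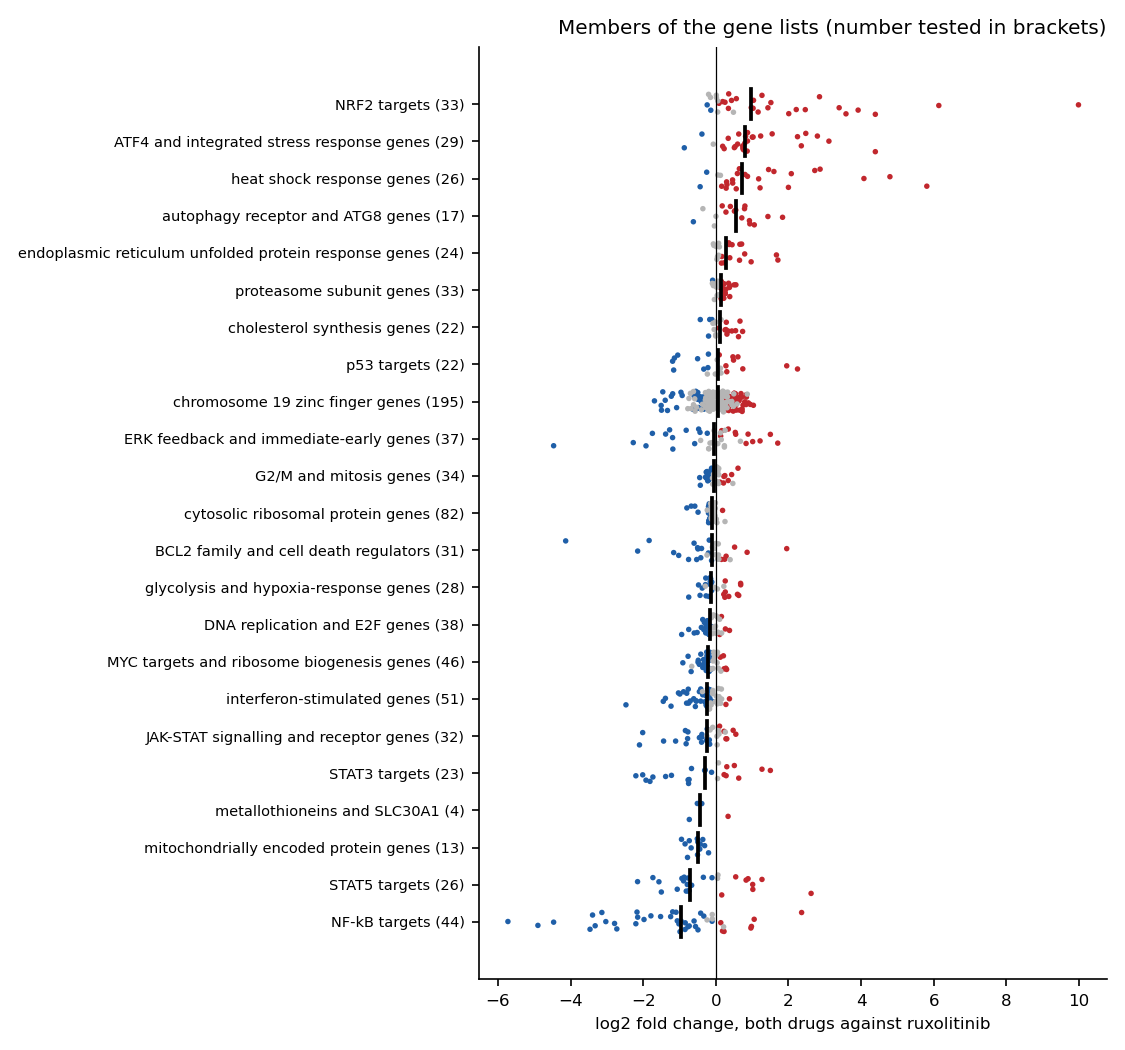
Each row is 1 of the 23 gene lists with the number of tested members in brackets, each point is a member, and the horizontal axis is its log2 fold change, both drugs against ruxolitinib. Red and blue points passed upward and downward, grey points did not pass, and the bar is the list's median, which runs from 0.97 for NRF2 targets to -0.97 for NF-kB targets.

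Most NF-kB targets fell. Of 44 tested members 33 fell, 7 rose and 4 did not pass. At least 2-fold falls were seen in 21 of the 44, against 6.82% of all genes. The median was -0.97. TNFAIP2, a TNF-α induced gene of endothelial and myeloid cells, stood at 1883, 1859 and 1955 CPM with ruxolitinib and at 233, 237 and 227 CPM with both drugs, a log2 change of -3.03 ± 0.033 (SE, adjusted p = 1.99e-61). Untreated cells held 236 ± 3.42 CPM (SD, n = 3) and TNF-α stimulated cells 1946 ± 16.6 CPM, and the libraries with both drugs overlapped those of untreated cells. ICAM1, the adhesion molecule of leukocyte binding, went from 384, 379.9 and 373 to 42.1, 45.6 and 41.3 CPM, a log2 change of -3.14 ± 0.0426 (SE, adjusted p = 2.74e-56). For ICAM1 the mean was 18.5 ± 1.03 CPM in untreated cells, 373 ± 15.4 with TNF-α and 173 ± 2.39 with MCL. The level with both drugs was thus lower than with MCL and above that of untreated cells, with no overlap of libraries.

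The cytokine gene TNF itself stood at 35, 37.7 and 37.8 CPM with ruxolitinib and at 3.88, 3.66 and 2.95 CPM with both drugs, a log2 change of -3.40 ± 0.0977 (SE, adjusted p = 1.27e-38). All 3 libraries with both drugs lay below the mean of 19.1 ± 1.28 CPM in untreated cells. EBI3, a cytokine chain of interleukins 27 and 35, went from 199.5, 205 and 188 to 16.8, 19.2 and 17.6 CPM. The adaptor gene TRAF1 fell by 3.32 and the adhesion gene VCAM1 by 4.90. NFKBIA, the inhibitor IκBα, fell by 0.99 and TNFAIP3, the deubiquitinase A20, by 0.84. TRAF1 was chosen after its values were seen.

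The 7 members that rose included 3 neutrophil chemokine genes. CXCL3, a neutrophil attractant, stood at 55.4, 58 and 62.1 CPM with ruxolitinib and at 294, 301 and 308 CPM with both drugs, a log2 change of 2.36 ± 0.0448 (SE, adjusted p = 2.24e-48). CXCL8, interleukin 8, went from 63.1, 67.1 and 61.2 to 129, 126 and 122 CPM, a log2 change of 0.98 ± 0.0534 (SE, adjusted p = 1.25e-21). CXCL2, their neighbour on chromosome 4, rose by 0.96, and the prostaglandin synthase gene PTGS2 by 1.06. Means of CXCL8 were 13.2 ± 2.57 CPM in untreated cells, 64.9 ± 3.38 with TNF-α and 134 ± 3.07 with MCL, so that both groups given MCL lay above both groups without it. The other 3 that rose, NFKBIZ (0.23), TRAF2 (0.14) and REL (0.18), changed by 0.23 or less. The call of TRAF2 was lost without ruxolitinib replicate 3 or replicate 2 or 3 with both drugs (adjusted p up to 0.13). The call of REL was lost in 6 of 12 alternatives, among them those without ruxolitinib replicate 1 or 2 and without replicate 1 or 3 with both drugs (adjusted p up to 0.351). CXCL2, PTGS2, NFKBIZ, TRAF2 and REL were chosen after their values were seen. In the promoter windows of 37 NF-kB targets 10 held the site GGGNNTTTC (27.0%), searched on both strands, against 4.12% of all windows, and CXCL2 and CXCL3 were among these as were NFKBIA and TNFAIP3.

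Interferon-stimulated genes fell further from the level set by ruxolitinib. Of 51 tested members 32 fell, 2 rose and 17 did not pass, with a median of -0.24. Of these 51 members 5 fell at least 2-fold, against 6.82% of all genes. GBP5, a guanylate-binding protein of the interferon gamma response, went from 25.7, 26.6 and 26.4 to 4.75, 4.04 and 5.34 CPM, a log2 change of -2.48 ± 0.112 (SE, adjusted p = 2.50e-28). CXCL11 and CXCL10, both chemokine genes, fell by 1.03 and 0.61, and OAS3, a sensor of double-stranded RNA, by 0.56. IFIT1, an antiviral RNA-binding protein gene, stood at 13.5, 13.1 and 10.8 CPM with ruxolitinib and at 8.75, 9.28 and 7.63 CPM with both drugs, and its reads can mix with those of LIPA, which overlaps it at 60.5 CPM. Its mean with TNF-α was 95.2 ± 2.84 CPM, so most of the decline from that level was present with ruxolitinib. The 2 that rose were STAT2 at 0.28 and IRF9 at 0.37, parts of the factor that turns these genes on. The call of IRF9 was lost when ruxolitinib replicate 1 or replicate 2 or 3 with both drugs was left out (adjusted p up to 0.0974), and with library totals in place of TMM 7 members rose. STAT2 and IRF9 were chosen after their values were seen.

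The STAT genes themselves split. STAT5A (chr17:42287547-42311943) stood at 525, 531 and 494 CPM with ruxolitinib and at 178, 195 and 199 CPM with both drugs, a log2 change of -1.44 ± 0.04 (SE, adjusted p = 5.11e-32). All 3 libraries with both drugs lay below the mean of 314 ± 18.9 CPM in untreated cells. STAT5B went from 114, 111 and 111 to 66.5, 64.4 and 59.5 CPM, a log2 change of -0.82 ± 0.0452 (SE, adjusted p = 3.54e-24). STAT3 stood at 245, 249.8 and 242 CPM with ruxolitinib and at 258, 257 and 259 CPM with both drugs, a log2 difference of 0.07 ± 0.035 (SE, adjusted p = 0.0804). This difference missed the threshold and passed in 4 of 12 alternatives, at adjusted p down to 0.00159, upward each time, among them library totals and leaving out ruxolitinib replicate 2. JAK2 fell by 0.24. These are transcript levels and say nothing of phosphorylation.

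Of 32 genes for JAK-STAT signalling and its receptors 18 fell, 6 rose and 8 did not pass, with a median of -0.24. CSF2RB, the common beta chain of the receptors for GM-CSF, interleukin 3 and interleukin 5, went from 220.4, 203 and 223 to 101, 99.7 and 99 CPM. The kinase gene TYK2 fell by 0.84. IFNGR2, a chain of the interferon gamma receptor, fell by 2.10 while the other chain, IFNGR1, rose by 0.55. IFNGR2 overlaps TMEM50B at 35.2 CPM, and IFNGR1 was chosen after its values were seen.

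STAT5 targets moved both ways: 16 of 26 fell, 8 rose and 2 did not pass, with a median of -0.70. The cyclin gene CCND1 went from 75.7, 75.5 and 76.1 to 23.4, 23.3 and 21.7 CPM, the kinase gene PIM2 fell by 1.50, BCL2L1, which encodes the survival protein BCL-XL, by 0.75, and the transferrin receptor gene TFRC by 0.79. CISH, a feedback inhibitor and a classical STAT5 target, fell by 0.67, although it overlaps MAPKAPK3 at 254 CPM. PIM1 rose: it stood at 30.7, 34.9 and 31.5 CPM with ruxolitinib and at 78.9, 77.7 and 77.6 CPM with both drugs, a log2 change of 1.27 ± 0.0588 (SE, adjusted p = 6.78e-28). Its mean of 78 ± 0.699 CPM with both drugs was also above the 42.3 ± 1.55 CPM with TNF-α. BCL6, a repressor that STAT5 is known to silence, rose from 2.73, 1.12 and 1.17 to 11.5, 9.99 and 9.52 CPM. The feedback genes SOCS1 and SOCS3 were low, at 1.81 ± 0.403 and 2.27 ± 0.448 CPM with ruxolitinib, and the former fell by 1.06 and the latter fell by 0.74. SOCS1 overlaps RMI2 at 41.2 CPM, and its libraries overlapped between the groups. SOCS2 stood at 0.06 ± 0.0706 (SE, adjusted p = 0.513). The call of SOCS1 was lost on leaving out ruxolitinib replicate 3 or replicate 3 with both drugs (adjusted p up to 0.0961), and that of SOCS3 on leaving out ruxolitinib replicate 2 or 3 or replicate 1 with both drugs (up to 0.114). BCL6 was chosen after its values were seen.

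Of 23 STAT3 targets 14 fell (60.9%, against 26.8% of all genes) and 7 rose (30.4%, against 24.8%), with a median of -0.31. BCL3, a nuclear partner of NF-kB, fell by 2.20 and the AP-1 gene JUNB by 1.92. Both lists hold MYC and PIM1, which moved apart from each other. In the promoter windows of 18 STAT5 targets 3 held the site TTCNNNGAA, those of CISH, BCL6 and EGR1 (16.7% against 6.78% of all windows), and of these 3 genes CISH fell and the other two rose. EGR1 was chosen after its values were seen.

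Cytokine receptors also activate the ERK kinases, whose feedback and immediate-early genes form a list of 37 tested members. Of these 11 rose (29.7%), 13 fell (35.1%) and 13 did not pass, near the 24.8% and 26.8% of all genes, and the median was -0.05 (0.06 without ruxolitinib replicate 3 and 0.09 without replicate 3 with both drugs, and also upward with library totals). DUSP6, the ERK phosphatase, stood at 35.6, 31.5 and 34.9 CPM with ruxolitinib and at 66.4, 60.4 and 62 CPM with both drugs, a log2 change of 0.89 ± 0.0564 (SE, adjusted p = 2.93e-21). DUSP5 went from 47.8, 50.1 and 49.7 to 100.2, 96.7 and 101 CPM. With TNF-α the means were 73.6 ± 1.51 CPM for DUSP6 and 106 ± 1.94 CPM for DUSP5, and with MCL 62.4 ± 2.68 and 101 ± 2.3 CPM. The ruxolitinib libraries were thus the lowest of the stimulated groups for both phosphatases, and those with both drugs lay near the MCL libraries. ETV5 and FOSL1, transcription factor genes induced by ERK, rose by 1.22 and 1.70. KLF10 and DUSP2 fell by 1.75 and 2.27, and the early response gene IER3 by 4.47. ETV5 and FOSL1 were chosen after their values were seen.

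Of the 10 myeloid and progenitor markers 8 fell, against 26.8% of all genes, and PTPRC and MPO did not pass. GATA2, a factor of stem and progenitor cells, stood at 522, 537 and 517 CPM with ruxolitinib and at 120.2, 137 and 127 CPM with both drugs, a log2 change of -2.04 ± 0.0365 (SE, adjusted p = 9.31e-50). SPI1, which encodes the myeloid factor PU.1, went from 229, 239 and 228 to 77.3, 81.1 and 72.7 CPM, a log2 change of -1.59 ± 0.0413 (SE, adjusted p = 5.88e-41). In both genes the libraries with both drugs lay far below those with ruxolitinib and below the untreated means of 485 ± 2.12 and 132 ± 3.39 CPM. LYL1 fell by 1.67 and TAL1 by 0.74. The erythroid factor gene GATA1, on the separate erythroid and megakaryocyte marker list, fell by 1.07. On that list ITGA2B fell by 0.21 and GP9 by 0.25, and PF4 and EPOR did not pass. RUNX1, another blood cell factor gene, fell by 0.11 (adjusted p = 0.0143). The surface antigen gene CD34 fell by only 0.36, and PTPRC stood at -0.01 (adjusted p = 0.88), so the markers of the line did not move by 1 factor. GATA2 overlaps its antisense gene at 29.1 CPM. GATA2, SPI1, LYL1, TAL1, GATA1, RUNX1, CD34, ITGA2B, GP9, PF4 and EPOR were chosen for naming after their values were seen.

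**Figure D3:**
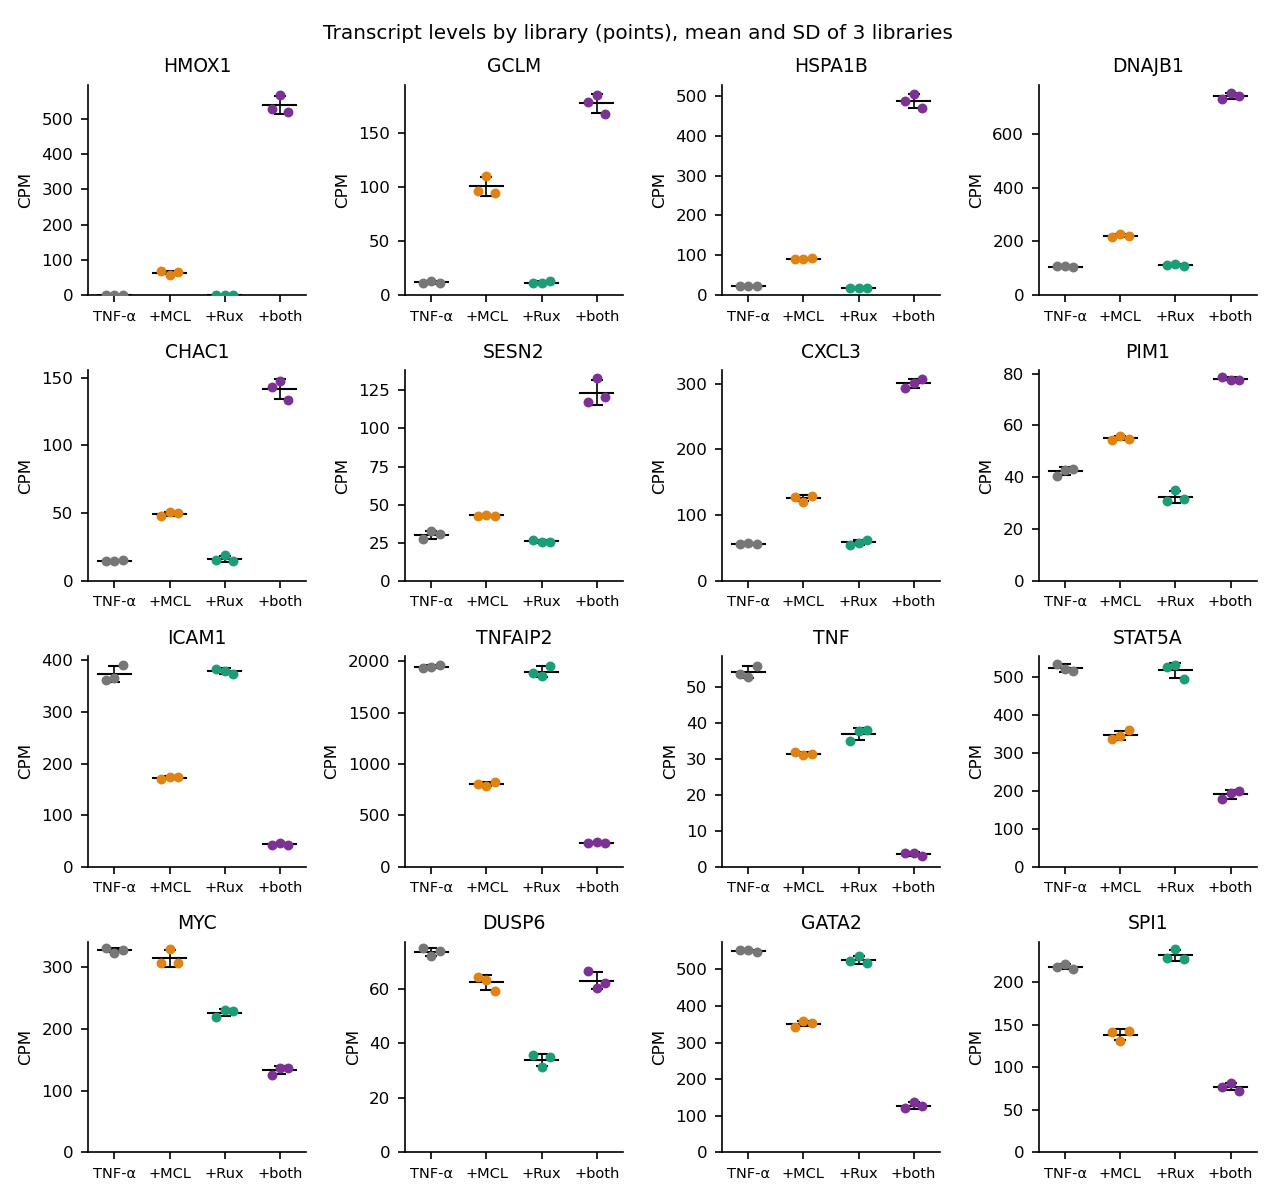
Each panel shows the CPM of 1 gene in every library of the 4 stimulated groups (TNF-α, then +MCL, +Rux for ruxolitinib, and +both), with points for libraries and lines for the mean and SD of 3. HMOX1, HSPA1B and CHAC1 are highest with both drugs, ICAM1, TNFAIP2, TNF, STAT5A, GATA2 and SPI1 are lowest with both drugs, and DUSP6 is lowest with ruxolitinib.

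Cell death regulators changed on both sides. Of 31 tested members 15 fell (48.4%, against 26.8% of all genes), 6 rose (19.4%, against 24.8%) and 10 did not pass. The median was -0.12. PMAIP1, which encodes the death-promoting protein NOXA, stood at 50.7, 49.2 and 47.5 CPM with ruxolitinib and at 187, 193 and 190.2 CPM with both drugs, a log2 change of 1.95 ± 0.0468 (SE, adjusted p = 8.17e-43). BMF, another death-promoting member of the family, went from 76.7, 83.1 and 76.8 to 22.1, 23.3 and 20.8 CPM, a log2 change of -1.84 ± 0.0659 (SE, adjusted p = 1.52e-33). The protective genes BCL2A1 and BIRC3, both NF-kB targets, fell by 2.15 and 0.60. MCL1, the survival protein that NOXA binds, stood at 0.05 ± 0.0365 (SE, adjusted p = 0.292), and this difference passed upward with library totals (adjusted p = 0.0154). BCL2 rose by 0.52, and the death receptor gene FAS and its adaptor gene FADD fell by 1.16 and 1.02. Of 22 p53 targets 9 rose (40.9%) and 8 fell (36.4%), with a median of 0.07. BCL2, FAS and FADD were chosen after their values were seen.

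MYC stood at 219.6, 230.0 and 229 CPM with ruxolitinib and at 125, 137 and 137 CPM with both drugs, a log2 change of -0.77 ± 0.0376 (SE, adjusted p = 1.25e-26), and at 465 ± 7.71 CPM in untreated cells. Of the list of 46 genes for MYC targets and ribosome biogenesis, 28 fell and 5 rose, with a median of -0.21. The nucleolar gene RRS1 fell by 0.91 and NOP56, a small nucleolar RNA partner, by 0.46. The 5 that rose were HSPD1 (0.30), POLR1E (0.27), DDX10 (0.23), UBTF (0.21) and RRP12 (0.12), of which HSPD1 is also a heat shock gene. The call of RRP12 was lost without ruxolitinib replicate 1 or 3 or replicate 1 or 2 with both drugs (adjusted p up to 0.15). Of 82 cytosolic ribosomal protein genes 45 fell and 1 rose, with a median of -0.11, but 23 fell with library totals in place of TMM and 22 without ruxolitinib replicate 2. The 5 ribosome biogenesis genes that rose were chosen after their values were seen.

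Of 38 DNA replication and E2F genes 21 fell (55.3%, against 26.8% of all genes) and 4 rose (10.5%, against 24.8%). The median was -0.16. The 4 that rose were the helicase gene MCM5 (0.26), the cyclin gene CCNE1 (0.38), E2F1 (0.15) and CDC45 (0.10), chosen after their values were seen, and the call of CDC45 was lost in 6 of 12 alternatives, 5 of which left out 1 library, each of the 6 except ruxolitinib replicate 2 (adjusted p up to 0.195). The replication clamp gene PCNA fell by 0.52 and UHRF1, which guides DNA methylation at the fork, by 0.94. Of 34 genes of G2/M and mitosis 13 fell (38.2%, against 26.8% of all genes) and 7 rose (20.6%, against 24.8%). Their median was -0.06. HMMR, a spindle protein gene, rose by 0.61. The proliferation marker gene MKI67 fell by 0.27, the cyclin gene CCNA2 by 0.28 and the kinesin gene KIF23 by 0.43. With library totals 12 of these mitosis genes rose. Of 28 glycolysis and hypoxia-response genes 15 fell (53.6%) and 9 rose (32.1%), with a median of -0.12. VEGFA rose by 0.63 while the hexokinase gene HK1 fell by 0.38. Of 22 cholesterol synthesis genes 11 rose (50%) and 4 fell (18.2%), with a median of 0.11. The sterol oxidase gene MSMO1 rose by 0.62, while the squalene enzyme gene SQLE fell by 0.43. The other 3 that fell, chosen after their values were seen, were LSS at -0.20, EBP at -0.17 and HMGCS1 at -0.11.

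All 13 protein genes encoded in mitochondrial DNA fell, with a median of -0.51. MT-CO1, a subunit of cytochrome oxidase, stood at 12922, 13304 and 12677 CPM with ruxolitinib and at 8949, 9171 and 9291 CPM with both drugs, a log2 change of -0.51 ± 0.0293 (SE, adjusted p = 4.03e-23). MT-ND2, a subunit of complex I, fell by 0.95, the most among the 4 mitochondrial genes named by rule. Of 195 zinc finger genes on chromosome 19 47 rose (24.1%, against 24.8% of all genes), 35 fell (17.9%, against 26.8%) and 113 did not pass. ZNF792 fell by 1.69 and ZNF473 rose by 0.95.

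The effect of MCL was also measured without ruxolitinib, as the 3 MCL libraries against the 3 TNF-α libraries, which share no library with the comparison above. In that pair 1757 genes rose (10.9%) and 2442 fell (15.1%), 26% in all. Across the 16146 genes the log2 effects with and without ruxolitinib had a Pearson r of 0.653 and a Spearman rho of 0.586, a description over genes, which are not independent replicates and share the depth of their libraries. A total of 3348 genes passed in the same direction in both pairs, which is 40.1% of the 8347 genes called with ruxolitinib and 79.7% of the 4199 called without it, and 104 passed in opposite directions.

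The difference of the effects was tested in the same edgeR model. The effect of MCL was higher with ruxolitinib than without in 1962 genes (12.2%) and lower in 2071 (12.8%), 25% in all. Among these 4033 genes 1526 had passed in the same direction in both pairs with the larger change under ruxolitinib, and 28 in the same direction with the smaller change. A further 2089 had passed only with ruxolitinib and 189 only without it. Counts of list members passing this test are to be read beside the 12.2% of all genes upward and 12.8% downward.

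**Figure D4:**
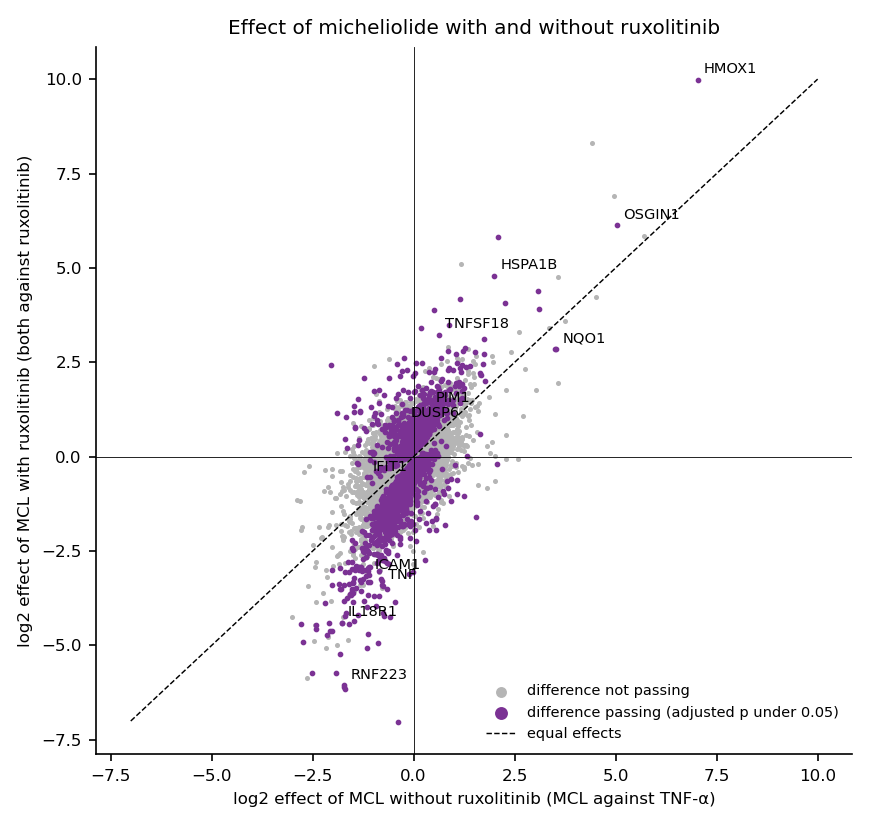
Each point is 1 of 16146 genes, with the log2 effect of MCL without ruxolitinib on the horizontal axis and with ruxolitinib on the vertical axis, and the dashed line marks equal effects. Purple points are the 4033 genes whose effects differed at an adjusted p under 0.05; HMOX1 and HSPA1B lie above the line, and TNF, ICAM1 and IL18R1 lie below it.

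The medians with and without ruxolitinib lay closer together for the antioxidant list than for the chaperone and ATF4 lists, a contrast of lists that was not tested. The median log2 effect on the NRF2 list was 0.82 without ruxolitinib and 0.97 with it, and the difference passed upward in 11 and downward in 6 of 33 members. The shares of all genes were 12.2% upward and 12.8% downward. For heat shock genes the medians were 0.28 and 0.73, with 19 of 26 members upward and 1 downward. For the ATF4 list they were 0.32 and 0.81, with 24 of 29 upward and 1 downward. Single members departed from these medians. The mean of GCLM went from 11.7 ± 0.985 to 101 ± 8.49 CPM with MCL and from 11.7 ± 0.968 to 177 ± 8.77 CPM with MCL on ruxolitinib, a difference of effects of 0.82 ± 0.109 (SE, adjusted p = 1.43e-08), against a median difference of 0.09 over the NRF2 list. HSPA1B stood at 22.9 ± 1.21 and 91.1 ± 1.71 CPM without and 17.5 ± 0.597 and 487 ± 16.8 CPM with ruxolitinib, a difference of 2.81 ± 0.0769 (SE, adjusted p = 3.11e-38). On the log2 scale NQO1 rose less with ruxolitinib, at 3.53 without and 2.85 with it, a difference of -0.68 ± 0.218 (SE, adjusted p = 0.0161). That difference did not pass without TNF-α replicate 1 or 3 or without ruxolitinib replicate 2 (adjusted p up to 0.133).

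The medians of the NF-kB list were -0.45 without ruxolitinib and -0.97 with it, and the difference passed downward in 31 and upward in 6 of 44 members. Of all genes 12.8% passed downward and 12.2% upward, so the upward count was near the share of all genes. TNF fell by 0.78 without and by 3.40 with ruxolitinib, a difference of -2.61 ± 0.124 (SE, adjusted p = 2.71e-26). For CXCL8 the effects were 1.04 and 0.98, a difference of -0.06 ± 0.0758 (SE, adjusted p = 0.604), which did not pass. For CXCL3 they were 1.16 and 2.36, a difference of 1.20 ± 0.0655 (SE, adjusted p = 1.90e-23).

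The interferon list had its lower median without ruxolitinib. The median effect was -0.42 without ruxolitinib and -0.24 with it, and the difference passed upward in 18 and downward in 6 of 51 members. Of all genes 12.2% passed upward and 12.8% downward, so the downward count was near the share of all genes. IFIT1 fell by 1.16 without and by 0.54 with ruxolitinib, a difference of 0.62 ± 0.115 (SE, adjusted p = 2.18e-05). GBP5 fell by 1.50 and by 2.48, a difference of -0.98 ± 0.151 (SE, adjusted p = 5.20e-07), so the differences of IFIT1 and GBP5 had opposite signs.

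Some genes passed on the 2 sides of 0. DUSP6 fell by 0.24 with MCL without ruxolitinib and rose by 0.89 on it, a difference of 1.12 ± 0.077 (SE, adjusted p = 5.71e-19). HSPA6 fell by 0.62 without and rose by 2.08 with ruxolitinib, a difference of 2.69 ± 0.298 (SE, adjusted p = 6.03e-11). STAT5A fell in both pairs, by 0.60 without and by 1.44 with ruxolitinib, a difference of -0.84 ± 0.0554 (SE, adjusted p = 7.02e-17), and BCL2L1 fell by 0.67 and 0.75, a difference of -0.08 ± 0.0732 (SE, adjusted p = 0.461), which did not pass. MYC stood at -0.06 without ruxolitinib (adjusted p = 0.228) and fell by 0.77 with it, a difference of -0.71 ± 0.0517 (SE, adjusted p = 1.05e-17). Ribosomal protein genes had a median of 0.04 without and -0.11 with ruxolitinib. The difference passed downward in 37 of 82 members, against 12.8% of all genes.

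**Figure D5:**
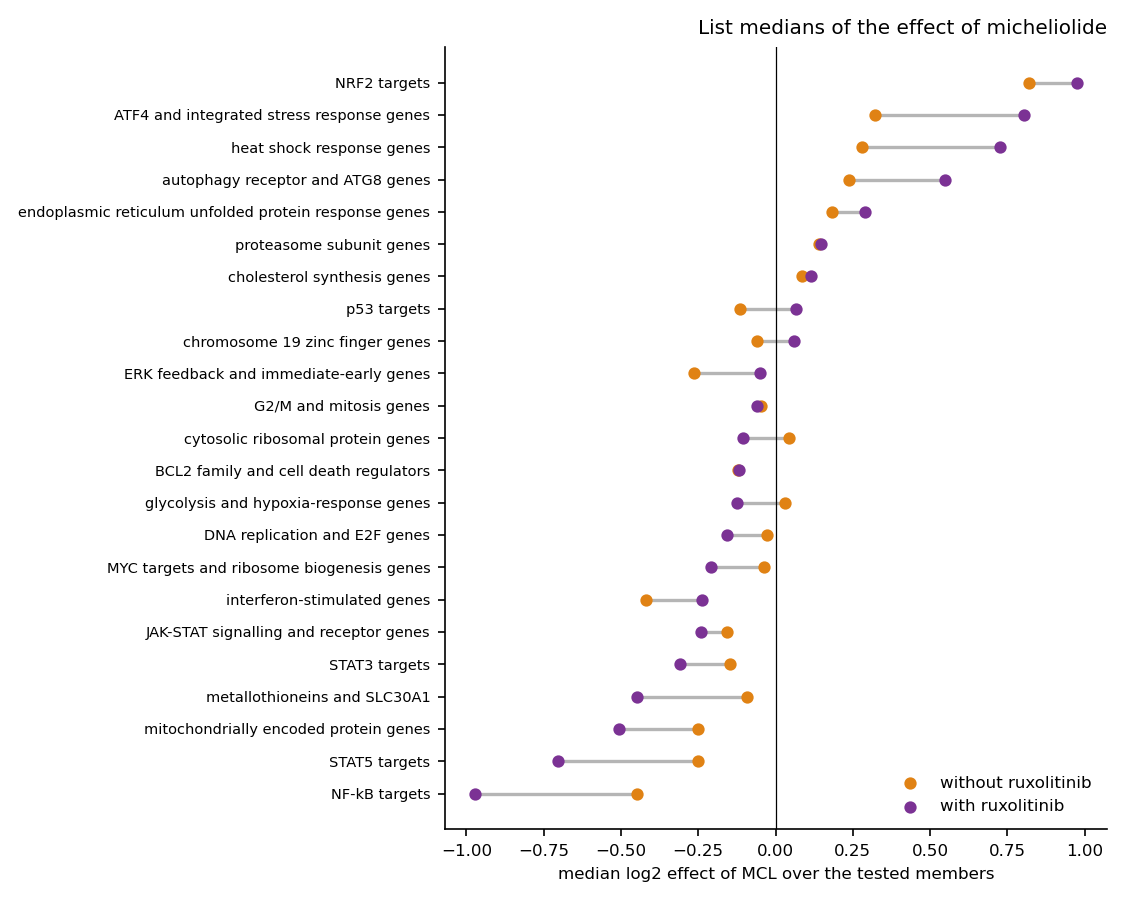
For each of the 23 gene lists, the points give the median log2 effect of MCL over its tested members without ruxolitinib (orange) and with it (purple), on 1 horizontal axis. The pairs lie farthest apart for the NF-kB list (-0.45 and -0.97) and the ATF4 list (0.32 and 0.81), and the interferon list lies nearer to 0 with ruxolitinib (-0.42 and -0.24).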

How the data were processed

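RNA of UKE1 cells was sequenced in 15 libraries, 3 in each of 5 groups, and groups were taken from the labels' treatments. The authors deposited 1 table of raw, unnormalized counts of reads for 58735 genes. Per the submitters' processing notes, the tools were HISAT2 2.0.5, DESeq2 1.16.1 and featureCounts 1.5.0-p3, and the builds hg38 and mm10, in no stated role. How strand was used and reads were filtered was not given in the sources used here, so reads of overlapping genes cannot be separated. All 58735 gene positions matched GENCODE 29 on hg38. Control columns were assigned to the untreated group. Library totals ran from 15476399 to 18035604 counts, and replicate libraries differed by more than sampling noise.

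Genes were filtered with filterByExpr of edgeR 4.0.16 (R 4.3.3) at a minimum count of 10 by group, scaled with TMM and tested in 1 model of 5 groups with the robust quasi-likelihood F-test (10 residual degrees of freedom) and Benjamini-Hochberg adjustment over 16146 genes, at an adjusted p under 0.05. Standard errors are the log2 fold change over the square root of F, which can be too small where a group has few counts. The test was also run on simulated counts with known changes. Alternatives were DESeq2 size factors, library totals, no filter, DESeq2 1.42.0, a replicate block, the 6 libraries alone, and leaving out each library.

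Genes were named by a rule: the 12 highest and 12 lowest fold changes that passed, among protein-coding genes at 5 CPM or more in the higher group with no overlap of libraries, up to 4 passing members of each of 23 lists with the smallest p, 28 panel genes, and the 6 highest and 6 lowest differences between the effects of MCL. Some genes the rule names are not printed. Further genes were picked with their values in view and are marked so. The lists come from textbook knowledge and share members, and members and lists were chosen with earlier results of these data known. Promoter windows were taken from RefSeq (GRCh38.p14) by gene symbol.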

Additional observations from a re-analysis of the deposited data

Results flagged for a closer look

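The effect of MCL differed with and without ruxolitinib, by the test of the difference itself, in 1962 genes upward and 2071 downward. The genes below are those of the panel and those with the highest and lowest differences among protein-coding genes that passed this test, and each value is the log2 effect of MCL with ruxolitinib minus that without it.

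Among stress genes the differences were 2.96 for HMOX1, 3.72 for HSPA1A, 2.81 for HSPA1B, 2.69 for HSPA6, 0.82 for GCLM, 1.59 for ATF3 and 1.48 for DDIT3. NQO1 stood at -0.68, a smaller log2 rise with ruxolitinib, though the levels reached with MCL were near each other. Its mean went from 1.95 ± 0.338 to 22.7 ± 1.06 CPM with MCL and from 3.31 ± 0.773 to 24 ± 1.13 CPM with MCL on ruxolitinib. TNFSF18, the GITR ligand gene, stood at 2.60: its mean went from 3.99 ± 0.714 to 6.17 ± 0.799 CPM with MCL and from 3.33 ± 0.484 to 31.3 ± 2.14 CPM with MCL on ruxolitinib.

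EIF3CL had the highest difference, 4.48, with an SE of 1.22 (adjusted p = 0.0211). It is a near-identical copy of EIF3C, so reads may be split between the pair, and its libraries with both drugs were spread over 45.4, 25.1 and 19.3 CPM. Its TNF-α libraries stood at 6.25, 6.67 and 61.7 CPM, and without TNF-α replicate 3, the highest of these, the difference was 2.53 (adjusted p = 0.0145). Its difference did not pass without MCL replicate 3, ruxolitinib replicate 2 or replicate 1 with both drugs (adjusted p up to 0.0514). Its change between both drugs and ruxolitinib, 2.43, was lost in 6 of 12 alternatives: without a filter on low counts, without ruxolitinib replicate 1, 2 or 3 and without replicate 1 or 2 with both drugs (adjusted p up to 0.116).

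Among genes of inflammation and adhesion the differences were -2.61 for TNF, -2.03 for ICAM1, -2.17 for VCAM1, -2.61 for IL18R1, -0.66 for NFKBIA and -0.57 for TNFAIP3. The other low differences were -4.33 for RNF223, -2.70 for WNT10A, -2.60 for TMCC2 and -2.55 for ANO9. RNF223 had 6 counts in the libraries with both drugs together, so its size depends on the prior count of the fit.

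In the JAK-STAT and survival genes the differences were -0.84 for STAT5A, -0.28 for STAT5B, -0.74 for PIM2, -0.71 for MYC, -0.40 for CISH, 0.89 for PIM1, 0.20 for MCL1 and 1.12 for DUSP6. IFIT1 stood at 0.62, where MCL lowered the transcript by less with ruxolitinib. The difference of CISH was lost with DESeq2 and without each of TNF-α replicate 2, MCL replicate 2, ruxolitinib replicates 1 and 3 and replicate 1 with both drugs, with adjusted p up to 0.193.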

How the results depend on the processing

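The 6 counts of genes passing kept within 1.5 times of their values under every alternative run, and none of the 180 genes run under them changed direction. Genes that rose numbered 4012, with 3662 to 3807 on leaving out 1 of the 6 libraries and 3850 to 4719 otherwise. Genes that fell numbered 4335, with 3793 to 4200 and 3689 to 4375. The upper count of 4719 and the lower of 3689 came with library totals in place of TMM, which moved the median of all genes from -0.02 to 0.04 and the share upward from 48.1% to 56.1%. Without ruxolitinib replicate 2, 3807 rose and 3793 fell, so which direction held more genes was not stable. At 2-fold the ranges over all alternatives were 484 to 582 upward and 951 to 1190 downward. Differences between the effects of MCL ranged from 1592 to 2168 upward and from 1825 to 2187 downward.

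With the replicate number as a block, 4041 genes rose and 4375 fell. Whether the numbers pair the samples cannot be settled by weak correlations among 3 libraries a group. Deviations of same-numbered libraries correlated at 0.0391, 0.14 and 0.0754, and those of differently numbered libraries at -0.155 to 0.0729. Each ruxolitinib replicate correlated best with its own number, while replicate 1 with both drugs correlated best with ruxolitinib replicate 3 (0.0729). Of 177 named genes that passed, 164 kept their call in all 12 alternatives and 13 lost it in at least 1, as given beside those the text names. With library totals 8 MYC targets and 7 replication genes rose in place of 5 and 4, and the median of the mitosis list moved from -0.06 to -0.01. The fall of HMGCS1 was also lost with library totals. The median of the chromosome 19 zinc finger list, 0.06, was 0.01 without ruxolitinib replicate 1 or replicate 1 with both drugs. The causes were not tested. Genes with few reads limit precision, and 42589 genes below the filter were not tested.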

Other observations

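Non-coding genes changed as well. Of 1109 tested antisense genes 143 rose (12.9%) and 178 fell (16.1%), and of 735 long intergenic RNA genes 104 rose (14.1%) and 125 fell (17%). These stood against 3533 (28.4%) and 3774 (30.3%) of 12455 protein-coding genes. At 2-fold or more the order was reversed. There 66 antisense genes rose and 107 fell, 45 and 72 intergenic RNA genes did, and 310 and 790 protein-coding genes did, a smaller share. Levels were not matched between these classes. Because strand use in counting is not given, reads of an antisense gene cannot be told apart from those of its partner. Of 570 processed pseudogenes 46 rose (8.07%) and 39 fell (6.84%).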
